A study of Mus musculus with 4 samples.

Results

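The genes described here are 7 chemokine ligand genes (Cxcl1, Ccl2, Ccl7, Cxcl5, Cxcl16, Cx3cl1 and Cxcl12) and the receptor gene Cxcr4. They were taken by symbol, as every probe set that the platform annotation assigns to 1 of these 8 symbols alone, which gave 16 probe sets out of 34945 with a single symbol, or 8 genes out of 18193. The symbols were picked with earlier results of these arrays known, and the signals and co-culture ratios were part of that choice. All values below are therefore descriptions, and none was tested. A further probe set that names a member together with another gene was looked for, and 0 were found.

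The arrays held RNA of Kupffer cells, which are liver-resident macrophages, together with SL4 cells, a mouse colon carcinoma line. Female C57BL/6 mice aged 12 weeks gave the Kupffer cells by sorting, and were either wild-type or Clec4n-/-, the latter lacking the gene of the receptor Dectin-2. Of the 4 groups, a wild-type and a Clec4n-/- one had both cell types in separate culture, and a wild-type and a Clec4n-/- one had them in co-culture, for 8 hours in medium with serum and in equal numbers. In the separate groups RNA of both cultures was mixed, per the series' design text, so each array covers both cell types and none tells which of them made a transcript. The amounts mixed are not given in the sources used here, and in every ratio of co-culture over separate culture a difference in the share of RNA from each cell type cannot be told apart from a change within the cells. Each group had 1 array. The labels do not say how many mice gave the cells, and there is no replicate error for any value.

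Chemokines are small secreted proteins that steer migrating cells through G protein-coupled receptors. In mice Cxcl1 and Cxcl5 act on Cxcr2, the main receptor of neutrophils, and Ccl2 and Ccl7 act on Ccr2, the receptor that brings monocytes into tissue. Cxcl16 and Cx3cl1 are made as membrane-bound proteins, which proteases can release from the cell surface. Cxcl12, a product of stromal cells, signals through Cxcr4 and is also bound by the scavenging receptor Ackr3. Transcription of Cxcl1 and Ccl2 is classically driven by NF-kappaB after inflammatory stimulation.

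Values are MAS5 signals, a linear measure of brightness that the authors scaled within each array, and signals of different probe sets are not set against each other. Their mean after trimming 2% of each tail was 497 to 498 in the 4 arrays, and 10117 to 10187 genes per array lay above the floor. The floor was 76.1, the median of every reading on all 4 arrays. Ratios were formed after raising signals to it, are written as lower bounds (at least) where the dimmer array did not exceed it, and are not given where neither array exceeded it. Clec4n itself was under the floor in all arrays, and both of its probe sets were brighter in each wild-type array than in the knockout array of the same culture, for instance 17.6 against 8.19 in co-culture. Which exons the knockout lacks is not given in the sources used here, and the order of signals this far under the floor is not read. These readings are therefore no check of the genotype.

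The sorting markers of the Kupffer cells were dim: Ptprc, Itgam and Adgre1, the genes of CD45, CD11b and F4/80, stayed below the floor on every array. Of 18 macrophage and leukocyte markers, 8 lay above it, with a summed signal of 1842 to 2194 in the separate arrays and 2251 to 2295 in the co-culture arrays. For 10 Kupffer cell markers the sums were 562 to 644 and 522 to 646. Of 11 epithelial markers 2 lay above the floor, with sums of 971 to 1044 and 1039 to 1065, and of 10 mesenchymal markers 6 did, with sums of 24975 to 28632 and 23748 to 25081. Of 9 hepatocyte markers 4 did, with sums of 861 to 926 and 814 to 832. None of the neutrophil, T and NK cell, B cell or liver endothelial markers lay above the floor in any array. The part of these differences in the chemokine values was not tested, and in mixed RNA fewer cells of a type and less RNA per cell cannot be told apart.

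Of the 16 probe sets, 12 lay above the floor in at least 1 array, 8 lay above it in all 4, and 4 lay under it in all 4. Among the 12, 8 were brighter in co-culture in both genotypes, 3 were dimmer in both and 1 went opposite ways. Probe sets of 1 gene share the RNA and the array. The same share over all probe sets is not given here, so nothing is read from these counts. The 3 dimmer ones were all of Cxcl12. Among the members above the floor, the strongest co-culture differences in both genotypes were those of the inducible ligands Cxcl1 and Ccl2, and those of the membrane-bound ligands were smaller.

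**Figure D1:**
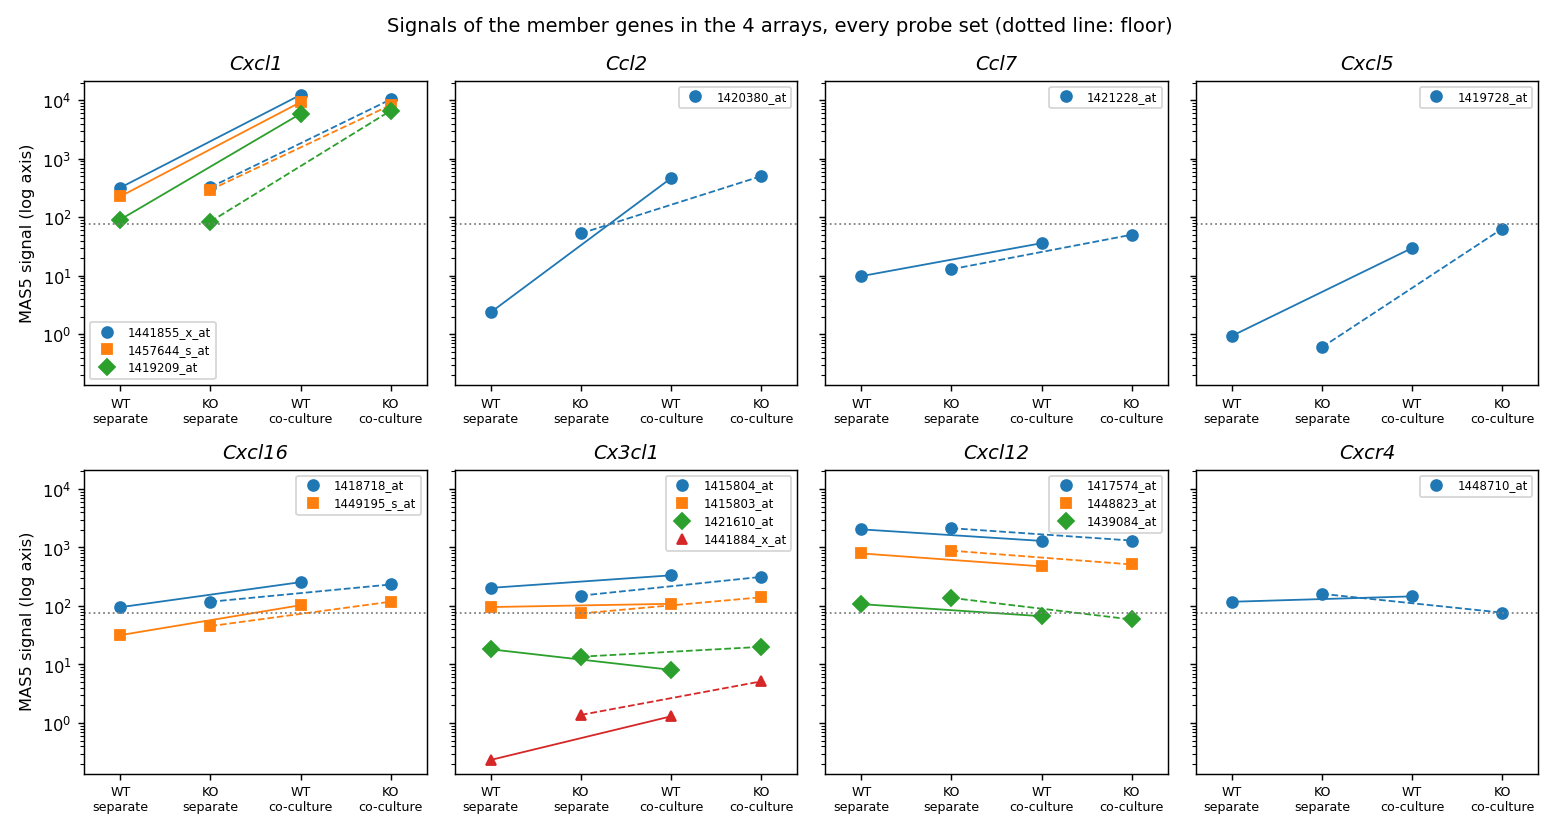
MAS5 signal on a log axis (y) in the 4 arrays (x) for every probe set of the 8 genes, with lines joining separate culture to co-culture within wild type (solid) and knockout (dashed), and the floor of 76.1 dotted. Each point is 1 array. The 3 Cxcl1 probe sets climb in parallel from between 84.5 and 326 to between 5885 and 12375, the 3 Cxcl12 probe sets slope downwards, and Ccl7 and Cxcl5 stay under the floor.

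Cxcl1, the mouse counterpart of the human GRO chemokines and a ligand of Cxcr2, gave the same picture in 3 probe sets. The brightest, 1441855_x_at, read 321 in separate culture of wild type and 326 in that of knockout, against 12375 in wild-type co-culture and 10366 in knockout co-culture. Probe set 1457644_s_at read 227 and 295 in the separate arrays of wild type and knockout, and 9287 and 8280 in their co-culture arrays. The dimmest, 1419209_at, read 91.5 and 84.5, and then 5885 and 6644. In every probe set both co-culture arrays stood far above both separate arrays, and all 12 readings lay above the floor.

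The size of the Cxcl1 difference depended on the probe set. In wild type the co-culture array was 38.5-fold, 40.8-fold and 64.3-fold brighter, from the brightest probe set to the dimmest. In knockout the same probe sets gave 31.8-fold, 28.1-fold and 78.7-fold. The suffixes _x_at and _s_at mark probe sets that can also bind other or related transcripts. The probe set without a suffix of that kind had the highest ratios in both genotypes. Cxcl1 ranked 1 of 10417 genes in wild type and 1 of 10444 in knockout by its ratio in the brightest probe set.

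The 250 bases before the Cxcl1 start are shown because they hold a match to the NF-kappaB consensus, marked in capitals. Those of Cxcl12 are shown beside them as a window without a match, from a gene that was lower in co-culture. The pair was picked for this contrast, so no link between match and ratio is read from it. Both come from RefSeq on GRCm38.p6 and read 5′ to 3′ on the plus strand, Cxcl1 at chr5:90890995-90891244 and Cxcl12 at chr6:117168285-117168534.
Cxcl1: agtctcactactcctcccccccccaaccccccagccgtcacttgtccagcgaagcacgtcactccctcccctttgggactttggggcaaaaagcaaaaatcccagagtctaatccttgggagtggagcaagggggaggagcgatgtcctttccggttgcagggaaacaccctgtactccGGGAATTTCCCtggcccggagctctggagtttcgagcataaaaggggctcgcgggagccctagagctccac
Cxcl12: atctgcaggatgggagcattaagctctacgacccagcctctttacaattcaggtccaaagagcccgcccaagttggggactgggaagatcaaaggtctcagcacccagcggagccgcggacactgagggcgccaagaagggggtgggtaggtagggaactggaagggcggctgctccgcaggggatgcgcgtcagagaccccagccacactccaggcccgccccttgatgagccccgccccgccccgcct
The capitals in Cxcl1 span bases 71 to 61 before the start, where the consensus matches on both strands in overlapping positions. On either strand, 3.90% of 32851 windows of this length hold a match to that consensus. The AP-1 motif TGANTCA, searched on both strands, is in 6.75% of windows and in neither of these. RefSeq windows were matched for 4 of the 8 members. Those of Cx3cl1, which was higher in co-culture, and of Cxcr4 also hold neither motif. A match of letters is a description and shows no binding.

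Cxcl5, the other Cxcr2 ligand among the members, was too dim to give a ratio. Its only probe set read 0.938 and 0.601 in the separate arrays of wild type and knockout, and 29.8 and 64.0 in co-culture. The highest reading, in knockout co-culture, fell short of the floor of 76.1, so the order of these readings is not read. Of 6 Cxcr2 ligand genes on the array, Cxcl1 was the only one above the floor in any array.

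In the gene table of assembly GRCm38.p6 the Cxcl1 gene lies in a row of related genes on chromosome 5, in the order Cxcl5, Ppbp, Pf4, Cxcl3, Cxcl15, Cxcl1 and Cxcl2. Its neighbour Cxcl2, also a neutrophil attractant, read 0.977 and 13.0 in the separate arrays of wild type and knockout, and 22.4 and 20.0 in co-culture. Cxcl3 read 6.49 and 0.370, and then 9.99 and 19.8. Cxcl15 read 18.5 and 6.83, and then 1.21 and 1.46. Signals this far under the floor carry no ratio, and none of these neighbours reached it in any array. Mthfd2l, the gene beyond Cxcl2 and no chemokine, read between 688 and 828 with log2 co-culture ratios of 0.07 in wild type and -0.22 in knockout.

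Ccl2, the monocyte attractant MCP-1, crossed the floor only in co-culture. Its single probe set read 2.38 in separate culture of wild type, 53.1 in that of knockout, 467 in wild-type co-culture and 505 in knockout co-culture. Both co-culture arrays were far brighter than both separate arrays, and they lay close to each other. The ratio was at least 6.13-fold for wild type and at least 6.63-fold in knockout, which ranked it 4 of 10417 genes and 3 of 10444. A gene that is counted only through its bright arrays had to differ, so these ranks describe the arrays and add no support. The 2 separate arrays differed more from each other than the co-culture arrays did, but both lay under the floor and their order is not read.

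Ccl7, which encodes MCP-3 and shares the receptor Ccr2, lies next to Ccl2 on chromosome 11. It read 9.87 and 13.0 in the separate arrays of wild type and knockout, and 36.1 and 50.4 in co-culture. As with Cxcl5, all 4 readings lay under the floor, so their order is not read. Going on from Ccl7, the row of chemokine genes holds Ccl11, Ccl12, Ccl8 and Ccl1, and the highest reading among these 4 was 21.5, for Ccl8 in knockout co-culture. Ccl11, the eosinophil attractant eotaxin, read 1.77 and 3.43, and then 12.9 and 12.1.

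Cxcl16, a membrane-bound ligand of Cxcr6 that also serves as a scavenger receptor, was brighter in both co-culture arrays in both of its probe sets. Probe set 1418718_at read 95.3 in wild-type separate culture, 118 in knockout separate culture, 255 in wild-type co-culture and 233 in knockout co-culture. That is 2.68-fold for wild type and 1.97-fold for knockout, on either side of the 2-fold line by which genes were counted. Probe set 1449195_s_at read 31.8 and 45.3 in the separate arrays, under the floor, and 103 and 118 in co-culture, so its ratios are at least 1.36-fold and at least 1.56-fold. The larger ratio was that of wild type in the first probe set, and the lower bounds of the second do not order the genotypes.

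Cx3cl1, or fractalkine, is the membrane-bound ligand of Cx3cr1. Its brightest probe set, 1415804_at, read 204 and 150 in the separate arrays of wild type and knockout, and 334 and 314 in co-culture. The co-culture arrays stood above both separate arrays, 1.64-fold for wild type and 2.09-fold for knockout. Probe set 1415803_at read 95.9 and 74.5, and then 109 and 141, which is 1.14-fold for wild type and at least 1.85-fold in knockout. The other 2 probe sets were under the floor in all arrays, and one of them, 1421610_at, was dimmer in wild-type co-culture, at 8.10 against 18.2. Both probe sets above the floor thus had the larger ratio in knockout, whereas the brightest of Cxcl16 had it in wild type.

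Cxcl12, the stromal chemokine SDF-1, was the only ligand among the members with lower signals in co-culture in both genotypes. The brightest probe set, 1417574_at, read 2040 and 2136 in the separate arrays of wild type and knockout, and 1295 and 1312 in co-culture. Probe set 1448823_at read 791 and 881, and then 475 and 513. Probe set 1439084_at read 108 and 137, and then 66.9 and 58.8, the co-culture arrays falling under the floor. All 3 probe sets kept the separate arrays above the co-culture arrays with no overlap. The same held for 25.6% of all genes in their brightest probe sets, and the 3 probe sets share the RNA and the arrays.

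For Cxcl12 the log2 ratios of the brightest probe set were -0.66 in wild type and -0.70 in knockout, and those of the second were -0.73 and -0.78. None reached 2-fold. In rank it was 254 from the lowest of 10417 genes in wild type and 248 from the lowest of 10444 in knockout. Mesenchymal markers, which mark cells known to make Cxcl12, had a median log2 ratio of -0.48 in wild type and -0.42 in knockout over 6 of 10 genes. All genes had medians of -0.02 and -0.02. The ratio was below 0 for all 6 markers in wild type and for 5 of 6 in knockout. The share of all genes below 0 is not given here, so nothing is read from these counts. The part of the mesenchymal markers in the Cxcl12 values was not tested.

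Cxcr4, the receptor of Cxcl12, was the member on which the genotypes went different ways. Its single probe set read 118 in wild-type separate culture, 161 in knockout separate culture, 146 in wild-type co-culture and 76.9 in knockout co-culture. The wild-type co-culture array lay between the 2 separate arrays, and the knockout co-culture array lay below all others, just above the floor. The co-culture ratio was 1.24-fold higher in wild type and 2.10-fold lower in knockout, 44 from the lowest of 10444 genes. With the floor doubled to 152 the log2 ratio in knockout was -0.08, since 3 of the 4 signals then lie under it.

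**Figure D2:**
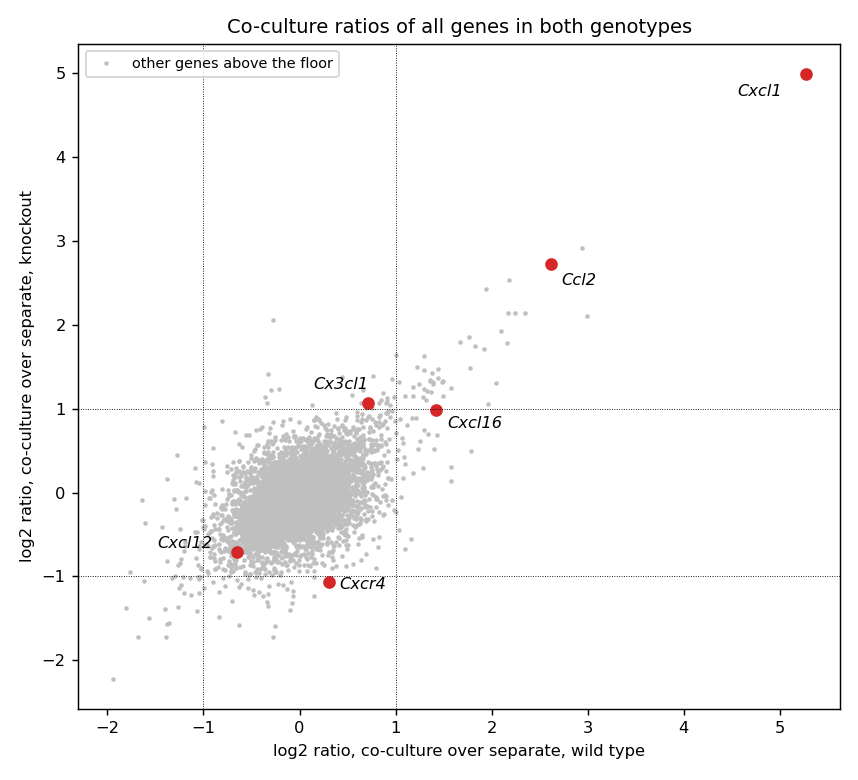
Log2 ratio of co-culture over separate culture in wild type (x) and in knockout (y) for genes above the floor in both comparisons, 1 point per gene, with members in red and dotted lines at 2-fold. Cxcl1 lies alone at the upper right (5.27 and 4.99), Ccl2 follows at lower bounds of 2.62 and 2.73, Cxcl16 and Cx3cl1 lie near the 2-fold lines, Cxcl12 is below 0 on both axes, and Cxcr4 is above 0 in wild type (0.31) and below -1 in knockout (-1.07).

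Counted at 2-fold, 3 of the 6 members above the floor were higher in wild-type co-culture (Cxcl1, Ccl2 and Cxcl16) and 0 were lower. Over all genes, 0.701% were at least 2-fold higher in that comparison and 0.538% at least 2-fold lower. In knockout 3 of 6 were higher (Cxcl1, Ccl2 and Cx3cl1), against 0.67% of all genes, and 1 was lower (Cxcr4), against 0.574%. The median log2 ratio of the 6 was 1.07 in wild type and 1.02 in knockout, where all genes had medians of -0.02 and -0.02. Because the members were chosen on these contrasts, nothing is read from those shares. Both co-culture arrays lay above both separate arrays for 4 of the 6 members, and for 19.6% of all genes, and they lay below them for 1, Cxcl12, and for 25.6% of all genes.

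The comparison of genotypes asks what the chemokine genes do when Dectin-2 is missing from the Kupffer cells. Only these cells differed in genotype, and each array also held RNA of SL4 cells. A genotype difference within the Kupffer cells could be hidden by SL4 signal, which was not tested. Of the members, 5 could be compared in separate culture and 6 in co-culture, and 0 reached 2-fold in either. Over all genes 0.203% were at least 2-fold apart in separate culture and 0.24% in co-culture, so counts of 0 are near the background. Cxcl1 in co-culture was 1.19-fold lower in knockout in its brightest probe set and 1.12-fold lower in the second, but 1.13-fold higher in the third. The 3 probe sets thus disagreed on the direction. In separate culture they gave log2 ratios of knockout over wild type of 0.02, 0.38 and -0.12, again of both signs.

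For the other members the genotype ratios were also under 2-fold, and for some the probe sets differed in sign. Ccl2 in co-culture was 1.08-fold higher in knockout, and in separate culture both arrays lay under the floor. Cxcl16 in co-culture had log2 ratios of -0.13 and 0.20 in its 2 probe sets, and Cx3cl1 of -0.09 and 0.37 in the 2 above the floor. Cxcl12 had 0.02 and 0.11 in co-culture in the 2 above the floor there, and values between 0.07 and 0.35 in separate culture in all 3. Cx3cl1 in separate culture was lower in knockout in both probe sets above the floor, at log2 ratios of -0.44 and, as a bound, -0.33. Cxcr4 differed most, at a log2 ratio of 0.45 in separate culture and -0.92 in co-culture, where it was 1.90-fold lower in knockout and 16 from the lowest of 10399 genes.

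**Figure D3:**
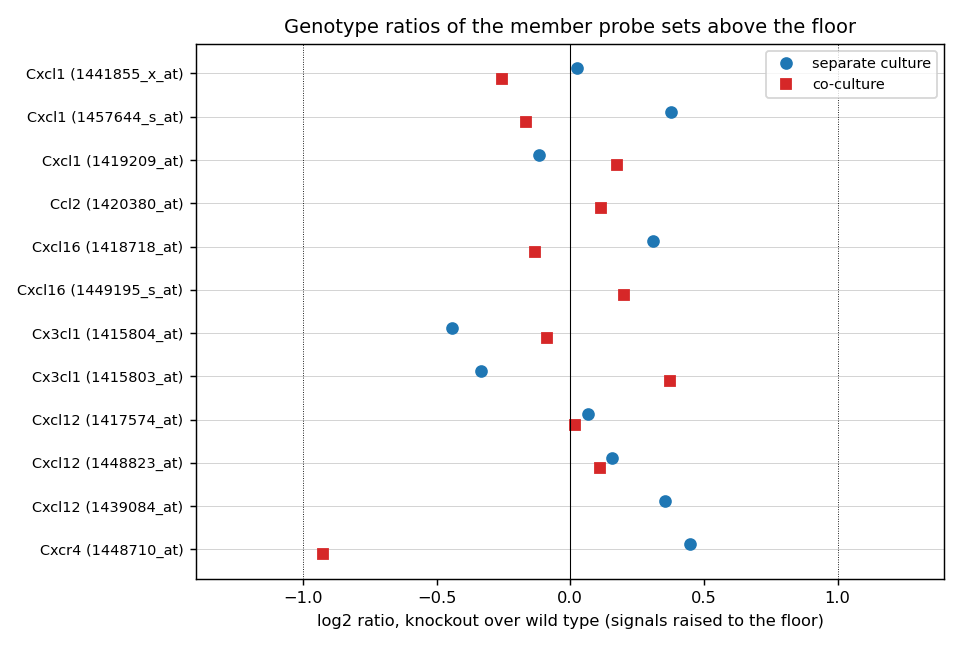
Log2 ratio of knockout over wild type (x) in separate culture (blue circles) and co-culture (red squares) for the 12 member probe sets above the floor in at least 1 array (y), each from 2 arrays, with dotted lines at 2-fold. All points lie inside the lines, the 3 Cxcl1 probe sets fall on both sides of 0 in each condition, and Cxcr4 in co-culture is farthest from 0 at -0.92.

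The difference between the co-culture ratios of the genotypes, knockout minus wild type on the log2 scale, reached 2-fold for 1 of the 6 members, against 1.05% of all genes. That member was Cxcr4 at -1.37, which ranked 12 from the lowest of 10637 genes. Cxcl1 had -0.28, -0.54 and 0.29 in its 3 probe sets, again of both signs. Ccl2 had 0.11 between 2 lower bounds, Cxcl16 -0.44, Cx3cl1 0.35 and Cxcl12 -0.05 in their brightest probe sets. For Cx3cl1 the second probe set also had a positive difference, 0.71 as a bound, and for Cxcl12 the second had -0.05, whereas the second of Cxcl16 had 0.20 between lower bounds.

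Beyond the members, few chemokine ligand genes were bright enough to follow. Of 38 ligands listed, 35 were on the array, and 27 of these lay under the floor in all 4 arrays. In separate culture 5 lay above it with wild-type cells and 6 with knockout cells, and in co-culture 7 did with either. The ones that are no members were Ccl25, a thymic and gut chemokine, Ccl28, a mucosal chemokine, and Ccl17, a ligand of Ccr4. Ccl17 read 9.20 and 6.07 in the separate arrays of wild type and knockout, and 107 and 79.2 in co-culture, so that like Ccl2 it passed the floor only in co-culture. Its ratios were at least 1.41-fold and at least 1.04-fold. Ccl25 stayed between 181 and 229, and Ccl28 passed the floor only in the knockout separate array, at 81.5.

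**Figure D4:**
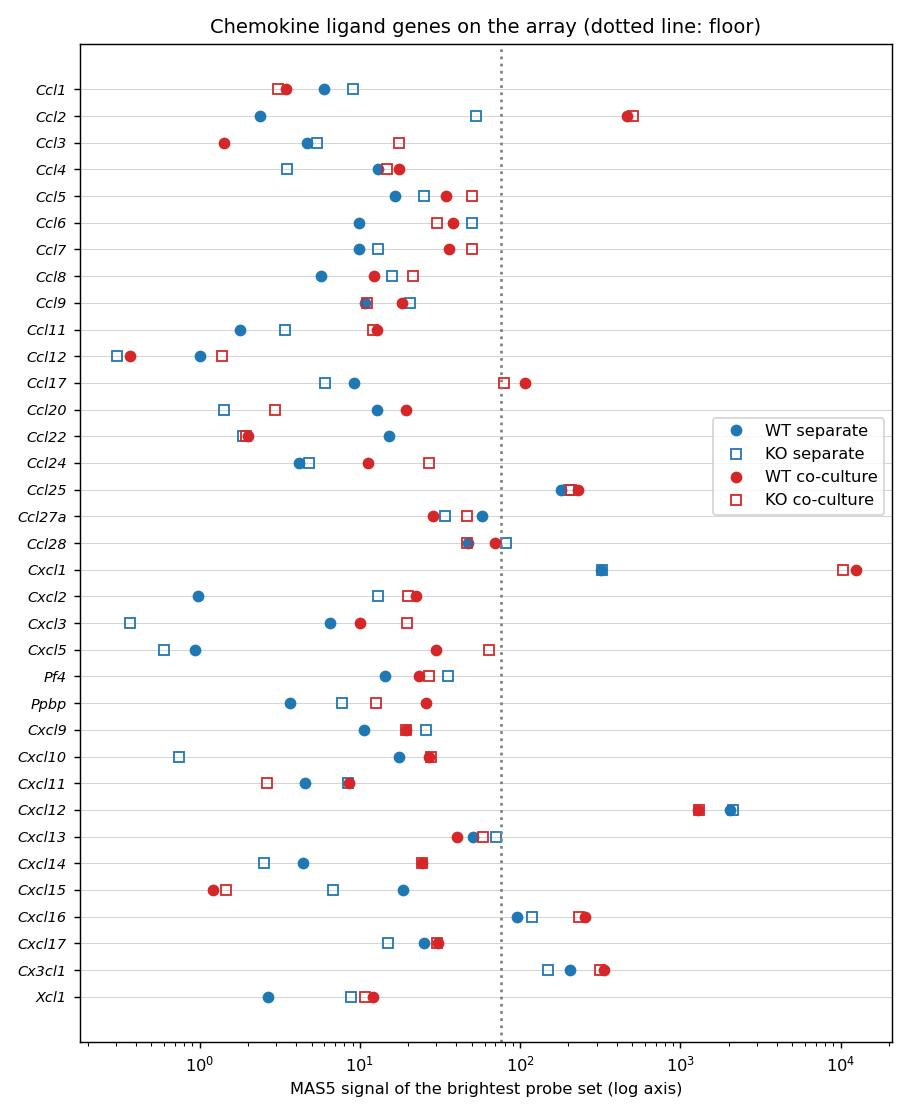
MAS5 signal on a log axis (x) of the brightest probe set of the 35 chemokine ligand genes on the array (y, in list order), in the separate (blue) and co-culture (red) arrays of wild type (filled circles) and knockout (open squares), with the floor of 76.1 dotted. Each point is 1 array. Most genes lie left of the floor in all arrays, Cxcl1 and Ccl2 have red points far to the right of the blue ones, and Cxcl12 has blue to the right of red.

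The receptors that pair with the ligands were mostly not measurable. Of 22 chemokine receptor genes on the array, 19 lay under the floor in all 4 arrays. Cxcr2 read between 0.917 and 13.2, Ccr2 between 6.44 and 18.3, Cxcr6 between 17.7 and 30.0, and Cx3cr1 between 2.93 and 29.9. Above the floor were Cxcr4 and the scavenging receptors Ackr3 and Ackr4, and among these 3 only Cxcr4 in knockout was 2-fold apart. Ackr3, which binds Cxcl12 and removes it, read between 1429 and 1659, with log2 co-culture ratios of 0.03 in wild type and -0.15 in knockout. The brightest probe set of Ackr4, a scavenger of homing chemokines, read 5843 to 6318, with log2 co-culture ratios of 0.08 and 0.11.

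Proteases release or trim several of these chemokines. Adam10 and Adam17, the sheddases of Cxcl16 and Cx3cl1, read 3036 to 3684 and 1952 to 2313. Their log2 co-culture ratios were -0.28 and 0.07 with wild-type cells, and -0.16 and 0.25 with knockout cells. Dpp4, which cuts and inactivates Cxcl12, lay under the floor in all 4 arrays, at 20.6 or less. Of 10 such genes on the array 5 lay above the floor, and 0 were 2-fold apart in either genotype. Over all genes 1.24% were 2-fold apart between culture conditions in wild type and 1.24% in knockout, so a count of 0 among 5 is near the background.

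The further lists of genes around chemokine transcripts included some with and some without 2-fold differences. Of 14 genes of the NF-kappaB core on the array, 13 could be compared in wild type and 14 in knockout, and co-culture was 2-fold higher or more for 6 and 7 of these, with 0 lower in either. The 0.701% and 0.67% of all genes given above are the background. This list was chosen with earlier results of these data known, so nothing is read from those shares. The genes of the list had medians of 0.76 and 0.75 on the log2 scale. Among them Bcl3, an atypical inhibitor that can co-activate transcription, read 80.9 and 61.7 in the separate arrays of wild type and knockout, and 367 and 441 in co-culture. Relb, a subunit of the factor, read 148 and 171, and then 394 and 345. Rela, the subunit of the classical pathway, stayed between 403 and 441.

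Among the cytokines that can induce Cxcl1 and Ccl2, Il1a, Il1b and Tnf were under the floor in all 4 arrays. Il1b read between 4.20 and 25.9, Il1a between 0.217 and 6.92, and Tnf between 13.7 and 28.8. Il33, an alarmin of the same family as Il1b, lay above it in all arrays at 436 to 573, and Il18, another relative, in 3 of the 4 at between 70.1 and 108. Il6 read 1.32 and 7.37 in the separate arrays of wild type and knockout, and 92.2 and 84.9 in co-culture, so it passed the floor only there. Its ratios were at least 1.21-fold in wild type and at least 1.12-fold in knockout. The receptors of Il1b and Tnf were above it, with Il1r1 at 1048 to 1560 and Tnfrsf1a at 1075 to 1326, and log2 co-culture ratios of -0.26 and 0.27 for the wild-type arrays and -0.41 and 0.24 for the knockout arrays. Of 22 genes of this list on the array 12 lay above the floor, with medians of -0.07 and 0.07. With signals raised to the floor 0 were 2-fold apart, again near the background of 1.24%. Il6 entered that count by its lower bounds, so the count does not tell whether Il6 was 2-fold apart.

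Of 12 regulators of chemokine mRNA stability, 11 lay above the floor in their brightest probe sets. Of these 0 were 2-fold apart, where 1.24% of all genes were, and their medians were 0.06 in wild type and 0.08 in knockout. The one not counted was Zc3h12a, or Regnase-1, an RNase that degrades inflammatory mRNAs. Its brightest probe set read 15.2 and 54.4 in the separate arrays of wild type and knockout, and 72.8 and 68.6 in co-culture. Its other probe set read 1.33 and 23.6, and then 155 and 133, which is at least 2.04-fold in wild type and at least 1.74-fold in knockout. Zfp36, or tristetraprolin, which marks Cxcl1 and other AU-rich transcripts for decay, read 1356 and 1526 in the separate arrays and 1611 and 1714 in co-culture. Its relative Zfp36l1 had log2 co-culture ratios of 0.53 and 0.50. Il17ra, whose signalling stabilises Cxcl1 mRNA, stayed between 2914 and 3326.

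**Figure D5:**
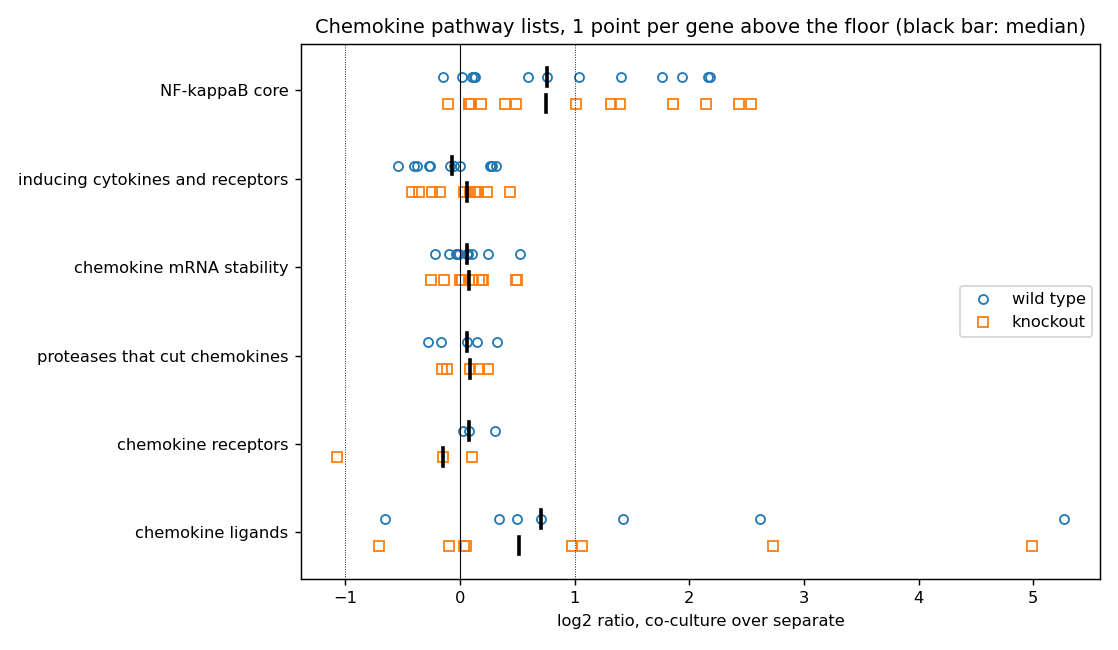
Log2 ratio of co-culture over separate culture (x) for 6 lists of genes around the chemokines (y), 1 point per gene above the floor in its brightest probe set, in wild type (blue circles) and knockout (orange squares), with medians as black bars and dotted lines at 2-fold. Points beyond the right-hand line belong to ligands and to the NF-kappaB core, and the only point beyond the left-hand line is Cxcr4 in knockout.

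The genes with the most similar patterns were found by Euclidean distance over the 4 arrays, between log2 signals raised to the floor. Each gene was centred on its own mean, and 10637 genes above the floor in at least 1 array were searched. With 4 arrays such a likeness is a description. For Ccl2 the nearest were Ptgs2, Bcl3, Fgf7, Igfbp7 and Nfkbiz, at distances from 0.29 to 0.54. Both separate-culture signals of Ccl2, 2.38 and 53.1, were set to the floor for this, as were those of Fgf7. Distances to Ccl2 therefore depend on the floor. Cxcl1 had no near match, as the gene with the highest ratio in both genotypes, and its nearest gene, Ptgs2, was 2.21 away, followed by Ccl2 at 2.47. Ptgs2, the inducible cyclooxygenase, read 275 and 265 in the separate arrays of wild type and knockout, and 2106 and 1999 in co-culture.

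For Cxcl16 the nearest gene was Relb at 0.09, followed by Micall2, Syt7, Zhx2 and Socs3 at up to 0.19. Around Cxcl12 lay Gstm4, Chrna1, Col4a1, Ociad2 and Dync2li1, at 0.03 to 0.07. Col4a1, a collagen of basement membranes, read 2743 and 2896 in the separate arrays, and 1833 and 1772 in co-culture. For Cxcr4 the nearest was Kcnh3 at 0.13, then Fah, Aasdh and the provisional genes 2810013P06Rik and 3110009E18Rik at up to 0.24. Kcnh3, a potassium channel gene, read 124 and 154 in the separate arrays and 156 and 68.4 in co-culture. It was picked for its likeness to Cxcr4, so its low knockout co-culture reading follows from that choice. That reading, the 70.9 of Fah in the same array, and the co-culture readings of Gstm4, 70.3 and 74.6, were set to the floor. Distances to these genes therefore also depend on the floor.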

How the data were processed

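Each of the 4 groups was measured on 1 single-colour array, from cDNA made from 20 ng of total RNA, per the labels' protocols. Deposited were linear intensities of probe sets, made with Affymetrix Expression Console 1.4 and MAS5, per the submitters' processing notes, a method that removes local background and brings arrays to a common scale. Because of this scaling a change in total RNA per cell cannot be seen. Detection calls and probe sequences were not used here, and precision is limited by the number of arrays.

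Of 45037 probe sets, 34945 had 1 gene symbol in the platform annotation, 932 had several and 9160 were not listed. Entrez numbers matched 34741 to a RefSeq gene table of GRCm38.p6, changing 0 symbols. Each gene was represented by its brightest probe set on average (log2 scale), and every probe set of a member is also given. Signals were raised to the floor of 76.1 and log2-transformed, with no further scaling. Genes above the floor in at least 1 array of a comparison were compared, and counted at 2-fold. With 1 array a group no test was made. An additive fit over the 4 arrays was left out because the members were chosen on those contrasts.

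The members and lists were chosen with earlier results of these data known. Genes are named as members, as list members at least 2-fold apart, as partners of a member, as cluster neighbours of Cxcl1 or Ccl2, or as the 5 nearest in pattern to Cxcl1, Ccl2, Cxcl16, Cxcl12 and Cxcr4. Ccl17, Ccl25, Ccl28, Ackr4, Rela, the inducing cytokines, the stability genes and Mthfd2l were named after their values were seen. Sequences were copied from a RefSeq promoter table. Calculations used Python 3.11.15, pandas 2.3.3 and NumPy 2.4.6 and were tested on simulated data. Alternatives were no floor, a doubled floor, a floor at the 95th percentile of 78 odorant and vomeronasal receptor probe sets (23.2), a common median, quantile normalization, the median over probe sets, the second brightest probe set, and folds of 1.5 and 3.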

Additional observations from a re-analysis of the deposited data

Results flagged for a closer look

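Cxcr4 stood out because its co-culture ratio was above 1 in wild type and below 1 in knockout. The difference, knockout minus wild type on the log2 scale, was -1.37, and it was not tested, since each ratio comes from 2 arrays. The signals behind it went from 118 to 146 in wild type and from 161 to 76.9 in knockout, in a single probe set near the floor of 76.1.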

How the results depend on the processing

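Among the single members, 167 of the values recomputed under the alternatives kept their direction and side of 2-fold, 8 changed sign between values that were both under 2-fold, 5 were no longer 2-fold and 2 became so. The difference for Ccl2 between the genotypes, 0.11, became -4.36 without a floor and -1.08 with the receptor-based floor. Its separate-culture signals, 2.38 and 53.1, both count without a floor, and that of knockout counts with the receptor-based floor of 23.2. Without a floor 5 members were at least 2-fold higher in wild type and 5 in knockout, Cxcl5 and Ccl7 now included, against 10.9% and 9.53% of all genes. With the receptor-based floor 5 were in knockout, against 1.71%. With the doubled floor 2 were in wild type, against 0.499%, since Cxcl16 then had a log2 ratio of 0.75 as a lower bound. With the second probe set, which only 4 of the members above the floor have, 1 was higher in each genotype, Cxcl1. The shares of all genes were 0.842% in wild type and 0.602% in knockout. Between the genotypes 1 member was 2-fold apart in separate culture (Ccl2) and 1 in co-culture (Cxcl5) without a floor, against 17.8% and 17.9% of all genes, and also with the receptor-based floor, against 1.92% and 1.86%. With a fold of 1.5 it was 1 in co-culture (Cxcr4), against 2.99%. The count for the difference between co-culture ratios was 3 without a floor and 3 with the receptor-based floor (Ccl2, Cxcl5 and Cxcr4), against 25.3% and 4.83% of all genes. That count was 0 with the doubled floor, with the second probe set and with a fold of 3. All genes had shares of 0.459%, 1.52% and 0.094% there, so these counts of 0 are near the background. Cxcr4 has 1 probe set and could not enter the count with the second probe set, so that 0 does not bear on Cxcr4. The labels give no replicate numbers to pair, and with 1 array per group none could be left out. Signals near or under the floor limit what can be said of Ccl7, Cxcl5, Cxcr4 and the separate-culture levels of Ccl2 and Cxcl16.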
